A study of Mus musculus with 14 samples.

Results

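The colony-stimulating factors (CSFs) and their receptor chains were followed at the level of promoter DNA methylation in clones of 4T1, a mouse mammary carcinoma line. The group was fixed by gene name as 7 genes: the ligands Csf1, Csf2 and Csf3 and the receptor chains Csf1r, Csf2ra, Csf2rb and Csf3r. In the table of promoter levels 6 of the 7 genes had 1 promoter row each, out of 21965 promoter rows of 20343 gene names, and Csf3r was not analysed here. Genomic DNA was bisulfite converted and sequenced genome-wide, so that a level is the share of cytosine left unconverted, between 0 for unmethylated and 1 for methylated. The intravasating clones, E and T, could enter blood vessels when the clones were assessed as a pool, and the non-intravasating group held clones I, K, L and P. Each clone was grown from a single sorted cell and gave 1 value per promoter, so the groups held 2 and 4 clones. The labels name no transgene or drug treatment, and the parental line was not analysed here. Read depth is unknown, so no counting error is given. A level between 0 and 1 can come from a share of the cells, of the alleles or of the sites in a promoter, and these cannot be told apart.

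The CSFs are secreted proteins that drive blood cell precursors to divide and mature. Csf1 encodes macrophage CSF, which acts through the receptor tyrosine kinase Csf1r. Csf2 encodes granulocyte-macrophage CSF, which binds the alpha chain Csf2ra and signals through the beta chain Csf2rb, a chain that the receptors of Il3 and Il5 use too. Csf3 encodes granulocyte CSF, which acts through Csf3r and releases neutrophils into the blood. The receptors are made mainly by myeloid cells, whereas tumour cells can make the ligands, and 4T1 tumours are known for a strong rise of granulocytes in the mice that carry them. Methylation of a promoter rich in CG dinucleotides usually goes with a silent gene. These statements are background, and expression was not measured in these data.

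Promoter windows of Csf1, Csf2 and Csf2ra are shown because they differ widely in CG dinucleotides, the sites that carry methylation. They are RefSeq sequences of GRCm38.p6 and run over 300 bases, 250 before and 50 after an annotated start. All 3 lie on the minus strand and are written 5′ to 3′ along the gene, with each CG in capitals. The positions are chr3:107760420-107760719 for Csf1, chr11:54249850-54250149 for Csf2 and chr19:61228369-61228668 for Csf2ra. The deposited levels may cover other or wider stretches, since the sources used here do not give their promoter boundaries.
Csf1: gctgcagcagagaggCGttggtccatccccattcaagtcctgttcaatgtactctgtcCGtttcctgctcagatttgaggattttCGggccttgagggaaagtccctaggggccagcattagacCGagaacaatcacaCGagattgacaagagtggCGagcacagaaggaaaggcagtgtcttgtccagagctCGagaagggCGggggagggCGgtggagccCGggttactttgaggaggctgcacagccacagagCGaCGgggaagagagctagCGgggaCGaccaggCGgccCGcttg
Csf2: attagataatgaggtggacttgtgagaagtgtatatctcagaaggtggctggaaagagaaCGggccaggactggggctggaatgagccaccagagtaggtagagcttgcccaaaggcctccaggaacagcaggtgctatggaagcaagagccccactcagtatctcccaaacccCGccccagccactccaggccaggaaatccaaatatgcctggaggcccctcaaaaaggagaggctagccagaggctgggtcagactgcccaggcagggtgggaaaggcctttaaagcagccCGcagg
Csf2ra: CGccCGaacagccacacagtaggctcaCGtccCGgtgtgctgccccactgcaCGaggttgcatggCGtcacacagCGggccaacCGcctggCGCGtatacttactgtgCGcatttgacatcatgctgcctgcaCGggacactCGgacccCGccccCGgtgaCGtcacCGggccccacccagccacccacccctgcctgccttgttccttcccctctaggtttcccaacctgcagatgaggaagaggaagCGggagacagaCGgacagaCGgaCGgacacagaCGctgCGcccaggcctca

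The 6 promoters spanned nearly the whole scale of methylation. Csf3 was almost free of methylation in every clone and Csf1 was partly methylated at a low level. Csf2 and all 3 measured receptor chains were mostly methylated by their means, although Csf2rb was at 0.427 in clone L. By fixed bounds, a mean over the 6 clones under 0.2 was termed low and one over 0.8 high. Csf3 was low, Csf2ra was high and the other 4 lay between. Of all 21965 promoters, 38.6% were low and 14.5% were high.

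**Figure D1:**
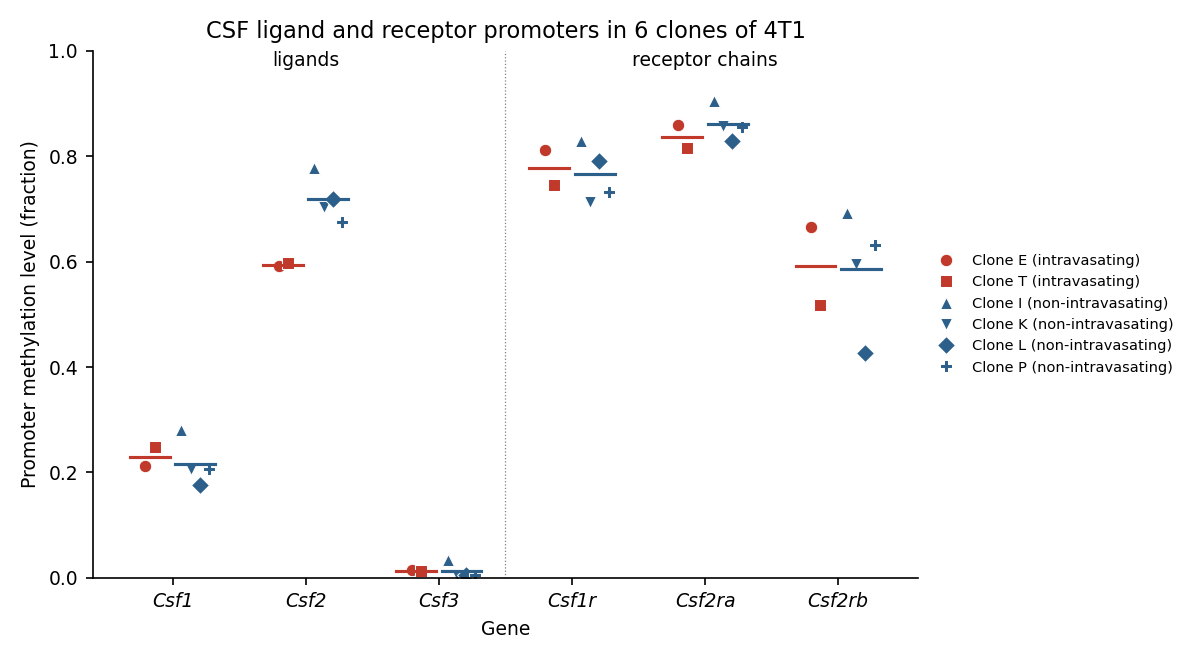
Promoter methylation level (fraction, vertical axis) of each measured CSF gene (horizontal axis), with 1 point per clone, intravasating clones E and T in red on the left and non-intravasating clones I, K, L and P in blue on the right; the short lines are group means. Csf3 lies near 0 in all 6 clones, and at Csf2 the red points, 0.591 and 0.596, lie below all 4 blue points.

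Among the ligands, Csf3 on chromosome 11 was the least methylated. Its promoter was at 0.0155 (E) and 0.0120 (T) in the intravasating clones, against 0.0331 (I), 0.00587 (K), 0.00588 (L) and 0.00595 (P) in the non-intravasating clones. Clone I was the highest and the other 3 non-intravasating clones lay below both intravasating clones, so the groups overlapped. The mean over the 6 clones was 0.0130 ± 0.0106 (SD, n = 6), lower than at all but 4.24% of promoters.

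Csf1 on chromosome 3 was at 0.211 (E) and 0.249 (T) in the intravasating clones, against 0.280 (I), 0.206 (K), 0.176 (L) and 0.206 (P) in the non-intravasating clones. The groups overlapped, with clone I highest and clone L lowest. Its mean was 0.221 ± 0.0368 (SD, n = 6), which placed it above 41.0% of promoters. Thus the Csf1 promoter, like that of Csf3, was mostly unmethylated in all 6 clones, but it lay above Csf3 by 0.208 ± 0.0283 (SD of the 6 paired differences) and in 6 of 6 clones.

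Csf2, on chromosome 11 as well, was the methylated ligand. Its promoter was at 0.591 (E) and 0.596 (T) in the intravasating clones, against 0.777 (I), 0.703 (K), 0.718 (L) and 0.675 (P) in the non-intravasating clones. Both intravasating clones lay below all 4 non-intravasating clones, and the nearest clones of the 2 groups were 0.0783 apart. Its mean was 0.677 ± 0.0725 (SD, n = 6). The range over the 6 clones, 0.186, was wider than at 86.9% of promoters.

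Among the receptor chains, Csf2ra on chromosome 19 was the most methylated. It was at 0.858 (E) and 0.815 (T) in the intravasating clones, against 0.905 (I), 0.856 (K), 0.8291 (L) and 0.855 (P) in the non-intravasating clones. The groups overlapped, and the whole range was 0.0896. The mean of 0.853 ± 0.0308 (SD, n = 6) lay above 90.8% of promoters.

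Csf1r on chromosome 18 was at 0.812 (E) and 0.744 (T) in the intravasating clones, against 0.8289 (I), 0.713 (K), 0.791 (L) and 0.733 (P) in the non-intravasating clones. Both ends of its range, clone I and clone K, were non-intravasating, and clones E and T lay between them, so the groups overlapped. Its mean was 0.770 ± 0.0467 (SD, n = 6). RefSeq lists a Csf1r pseudogene on chromosome 19, and the sources used here do not give how reads that match both copies were assigned.

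Csf2rb on chromosome 15 varied the most between clones. It was at 0.666 (E) and 0.519 (T) in the intravasating clones, against 0.693 (I), 0.596 (K), 0.427 (L) and 0.631 (P) in the non-intravasating clones. Clone L was the lowest and clone T the second lowest, 1 clone from each group, so the spread ran within the groups and not between them. Its range of 0.266 was wider than at 95.9% of promoters, around a mean of 0.588 ± 0.0996 (SD, n = 6). Clones T and L also had the lowest median over all promoters, 0.303 and 0.296 against 0.333 to 0.352 in the other 4 clones, and the part of this in the Csf2rb values was not tested. Csf2rb has a close relative on the same chromosome, Csf2rb2, which was not analysed here, and levels of the 2 genes could be mixed where reads match both.

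In order of mean level the genes ran Csf3, Csf1, Csf2rb, Csf2, Csf1r and Csf2ra. Csf2 and Csf2rb did not differ beyond their spread: Csf2 was higher by 0.0885 ± 0.118 (SD of the 6 paired differences), in 5 of 6 clones. Csf1r was above Csf2 by 0.0934 ± 0.0768 and Csf2ra above Csf1r by 0.0829 ± 0.0416, each in 6 of 6 clones. The widest step was between Csf1 and Csf2rb, at 0.367 ± 0.0855. No other promoter row had the same 6 levels as any of these genes.

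The design set the intravasating clones against the non-intravasating clones at each promoter. None of the 6 promoters was called, that is, none reached an adjusted p under 0.05 with limma over all promoters, where 0.00911% of promoters were called. At an unadjusted limma p under 0.05 there was 1 of the 6, Csf2. Csf2 showed the largest difference among the 6. Its mean was 0.594 ± 0.00356 (SD, n = 2) among intravasating and 0.718 ± 0.0432 (SD, n = 4) among non-intravasating clones, a difference of -0.124 with a standard error of 0.0380. The unadjusted limma p for Csf2 was 0.00991 and the limma adjusted p was 1.0. Over all promoters 3.93% had an unadjusted limma p under 0.05 and 0.728% had one at or below that of Csf2. Lower levels without overlap, as at Csf2, were seen at 6.89% of all promoters, and a count of 1 of 6 cannot be told apart from that background.

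The other 5 promoters had small differences with intervals on both sides of 0, and a limma adjusted p of 1.0 each. Their signs rested on single clones, except at Csf2ra: the sign turned at Csf1 without clone T or L, at Csf3 without E, K, L or P, at Csf1r without E or K, and at Csf2rb without E or L. For Csf3 the means were 0.0137 and 0.0127 in intravasating and non-intravasating clones, with a 95% interval of the difference of -0.0186 to 0.0206. For Csf1 they were 0.230 and 0.217 in intravasating and non-intravasating clones (95% interval of the difference -0.0702 to 0.0968). Csf1r had group means of 0.778 and 0.766 in the same order (-0.0768 to 0.1001), and Csf2ra had 0.837 and 0.861 (-0.0853 to 0.0361). The interval was widest for Csf2rb, at -0.165 to 0.176, around means of 0.592 and 0.587. Differences as large as that at Csf2 thus lie inside the interval of Csf2rb and outside those of the other 4. The median difference was 0.00325 over the 6 promoters and -0.00424 over all promoters.

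**Figure D2:**
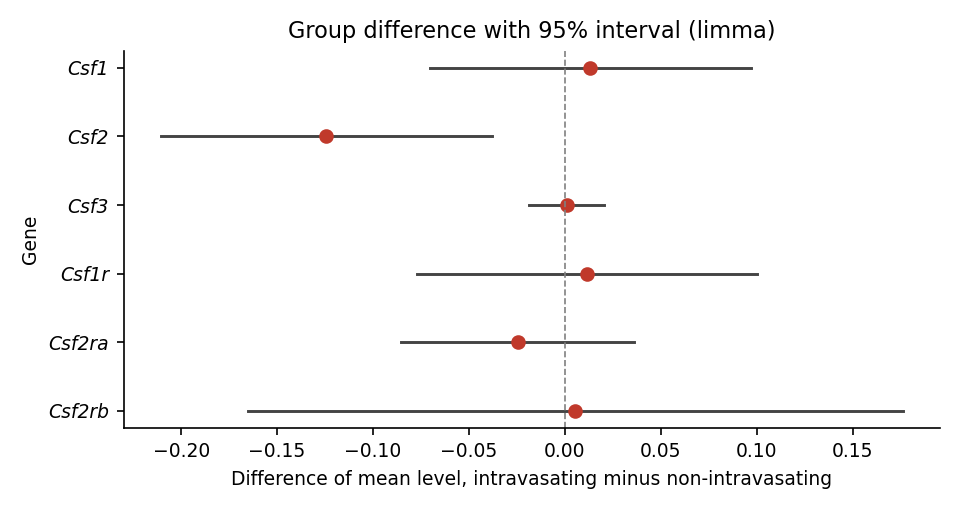
Difference of mean promoter level (horizontal axis, fraction, intravasating minus non-intravasating) for each CSF gene, with the limma 95% interval as a line. The Csf2 interval, -0.211 to -0.0382 before any adjustment for the number of promoters, is the one that leaves out 0.

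Clone I had the highest level of the 6 clones at all 6 promoters, a pattern noticed after the values were seen. Over all promoters clone I was highest at 27.8%, and it had the highest median level of the 6 clones, 0.352. After each clone was centred on its own median, clone I was highest at 3 of the 6 promoters, Csf2, Csf2ra and Csf2rb, against 9.85% of all promoters. Centring takes the same amount from every level of a clone, and the most from clone I, also at promoters near 0. Clone I was then lowest at 28.5% of all promoters, so the 9.85% is not a like background for methylated promoters. At Csf2 its centred level was 0.425, hardly above that of clone L at 0.422. The lowest clone differed from gene to gene: L for Csf1 and Csf2rb, K for Csf3 and Csf1r, E for Csf2 and T for Csf2ra.

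The CG content of the printed windows was set beside the levels. The Csf2 window held 3 CG, few for its GC content of 56.7%, with an observed over expected CG ratio of 0.126. The Csf1 window held 16 CG at a ratio of 0.644, and the Csf2ra window held 23 CG at a ratio of 0.738. The comparison set was the 12746 genes with 1 promoter row and 1 RefSeq window, where the median window held 14 CG.

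Csf1 and Csf2 were near the usual level for the CG number of these windows, and Csf2ra was not. The 262 promoters with 16 CG had a median level of 0.183, beside 0.221 for Csf1, and the 699 promoters with 3 CG had a median of 0.580, beside 0.677 for Csf2. The 289 promoters with 23 CG had a median of 0.139, against 0.853 for Csf2ra, and 23 of them, Csf2ra included, were at its level or above. Of the promoters with 21 to 24 CG, 62.8% were low and 7.29% were high. Csf3r, whose level was not analysed here, had 9 CG in its window.

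**Figure D3:**
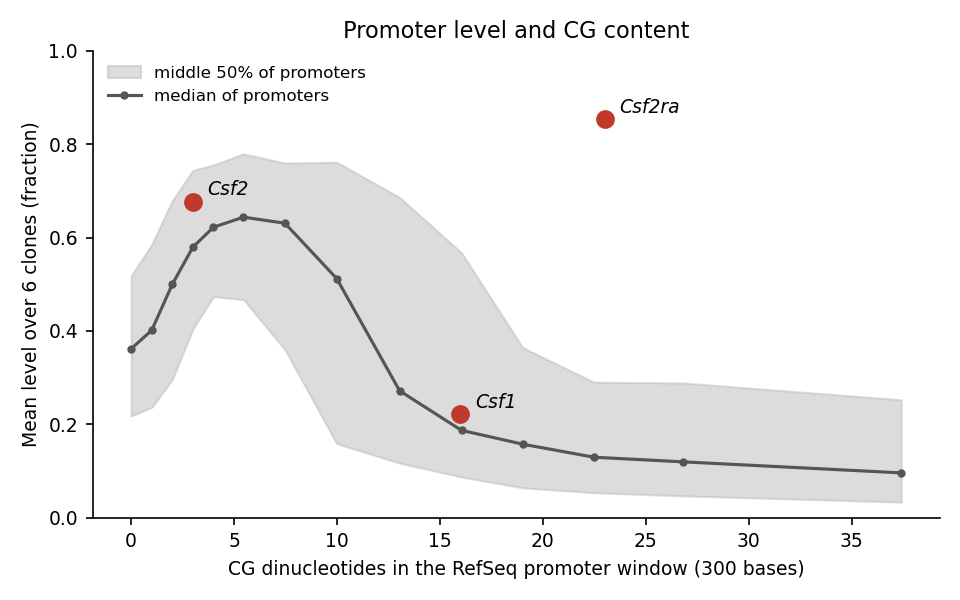
Mean promoter level over the 6 clones (vertical axis, fraction) against the number of CG in the 300-base RefSeq window (horizontal axis), with the median of promoters as a line and their middle 50% as a band. Csf2ra, with 23 CG and a level of 0.853, lies far above the band, while Csf1 and Csf2 lie inside it.

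Short motifs were looked for on both strands of the windows. A form of the site bound by NF-kappaB (GGGA, any base, TT, any base, CC) was found in the Csf1 window, as gggactttcc on the strand opposite to the gene. It occurs in 1.20% of the 32851 windows of all genes. This match holds no CG. Neither GAGATTCC, a core of the cytokine element described for CSF genes, nor TATAAA was in the windows of Csf1, Csf2, Csf2ra or Csf3r. Those letters occur in 0.904% and 13.6% of all windows. The search says only whether these letters are in these windows.

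Csf2 was next compared with the genes around it, the nearest 3 measured genes on either side in the RefSeq order of GRCm38.p6. Distances are given between the nearest gene ends and not between promoters. Il3, which encodes another cytokine of the same receptor family and lies 15.2 kb away, did not follow Csf2. Il3 was at 0.687 (E) and 0.625 (T) in the intravasating clones, against 0.605 (I), 0.652 (K), 0.610 (L) and 0.795 (P) in the non-intravasating clones, so its groups overlapped. Slc22a4, an organic cation transporter gene 217 kb away on the other side, was lower without overlap like Csf2. It was at 0.120 (E) and 0.186 (T), against 0.269 (I), 0.244 (K), 0.231 (L) and 0.273 (P) (limma adjusted p = 1.0).

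Acsl6, an acyl-CoA synthetase gene 53.9 kb beyond Csf2, had rows in both directions. Group means of its 3 promoter rows were 0.640, 0.658 and 0.799 in intravasating clones, against 0.711, 0.725 and 0.726 in non-intravasating clones. The first and second rows were lower and the third was higher without overlap, each with a limma adjusted p of 1.0. The groups overlapped at the genes P4ha2, Pdlim4 and 4930404A10Rik. Slc22a4 and the first and second Acsl6 rows were thus lower without overlap, beside 6.89% of all promoters. The first and second Acsl6 rows belong to 1 gene and had similar levels in each clone, so they are not separate cases. At Acsl6 the groups almost touched, whereas the nearest clones at Csf2 were 0.0783 apart. The nearest clones were at 0.653 (E) and 0.668 (L) in the first Acsl6 row and 0.674 (E) and 0.680 (L) in the second. In the third they were at 0.797 (T) and 0.792 (K). The lower level of clones E and T was shared by some promoters around Csf2 and not by all. Whether this goes beyond the background was not tested.

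**Figure D4:**
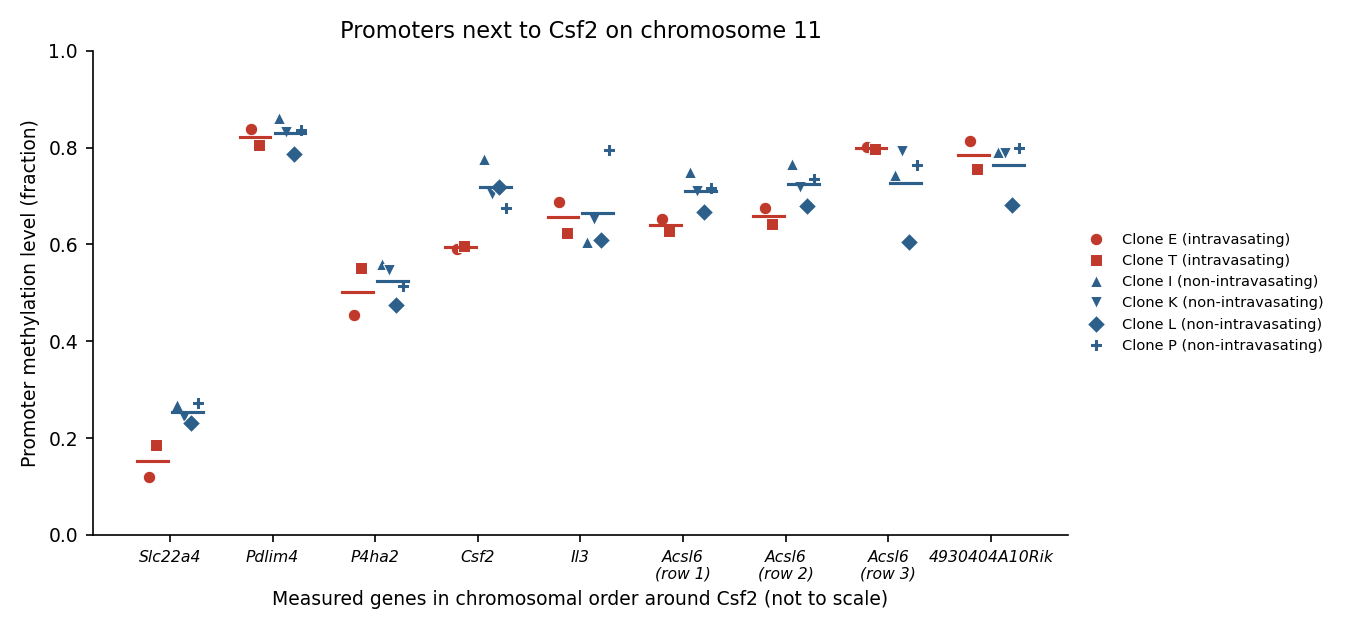
Promoter methylation level (fraction, vertical axis) of Csf2 and its nearest measured genes in chromosomal order (horizontal axis, not to scale), 1 point per clone, intravasating clones in red on the left, non-intravasating clones in blue on the right, and group means as lines. At Slc22a4, Csf2 and the first and second Acsl6 rows both intravasating clones lie below all non-intravasating clones. The third Acsl6 row shows the reverse, and at Il3 next to Csf2 the groups overlap.

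Measured neighbours of the other CSF genes had levels near to or far from theirs. Csf3 lies between Psmd3, a proteasome subunit gene at a mean level of 0.0493, and Med24, a Mediator subunit gene at 0.182, while Gsdma, a gasdermin gene 22.5 kb from Csf3, was at 0.403. The nearest ends of the genes Hmgxb3 and Csf1r lie 0.138 kb apart, which is not the distance between their promoters. The Hmgxb3 promoter was at 0.0668, against 0.770 for Csf1r. Pdgfrb, the platelet-derived growth factor receptor gene on the other side of Csf1r, was at 0.607. The measured gene nearest to Csf2ra, at 0.853, was Gm7102, 40.9 kb away and at 0.727, and beyond it Grk5, a kinase gene 121 kb from Csf2ra, was at 0.0204.

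For the members with a range of at least 0.1, the promoters with the most similar levels over the 6 clones were looked up, as a mean absolute difference over 6 clones. The closest to Csf2 were S100a14, a calcium-binding protein gene, at 0.0237, Tie1 at 0.0240 and Spata18 at 0.0251. Likeness to Csf2 was what chose them, and all 3 were lower in clones E and T without overlap, S100a14 for example at 0.593 (E) and 0.612 (T) against 0.712 to 0.769 in the non-intravasating clones. The closest to Csf2rb were Fgg, the fibrinogen gamma chain gene, at 0.0192, Dmrtc1b at 0.0217 and Clec12b at 0.0232, all with a low level in clone L. Rgs5, Krt33b and Anks1b were closest to Csf1r, at 0.0192 to 0.0207. Csf1 had 35 promoters within 0.02, led by Mccc2 at 0.0127, Aloxe3 at 0.0130 and Hps6 at 0.0136.

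Genes related to the CSF system were then described by list. Among 7 other ligands of the same receptor families, with 8 promoter rows, the median level was 0.673. Kitl, the stem cell factor gene, was lowest at 0.0969, followed by Flt3l, the Flt3 ligand gene, at 0.328. A row of Thpo, the thrombopoietin gene, was highest at 0.765, next to Epo, the erythropoietin gene, at 0.757. Il34, which encodes the other ligand of Csf1r, was at 0.655 (E) and 0.608 (T), against 0.629 (I), 0.747 (K), 0.752 (L) and 0.708 (P). The groups of Il34 overlapped, and its difference of -0.0773 was the most negative of the list.

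Other receptor chains of these families had a median of 0.675, near that of the CSF receptor chains at 0.770. Measured rows numbered 7 for 6 of 7 genes. The intravasating mean was below the other at 6 of the 7 rows (85.7%), beside 57.5% of all promoters, and this share was not tested. Il5ra, the interleukin 5 receptor alpha chain gene, was lowest at 0.238. Kit, the stem cell factor receptor gene, was highest with rows at 0.849 and 0.851. Both Kit rows had nearly equal levels in each clone, and both count among the 6 rows above. Epor, the erythropoietin receptor gene, was at 0.384 (E) and 0.389 (T), against 0.418 to 0.485 in the non-intravasating clones, without overlap.

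Signalling genes downstream of the CSF receptors were mostly low, with 16 of 23 rows under 0.2 and a median of 0.124. Jak2, the kinase that cytokine receptors of this kind use, was at 0.00787 and Pim1, a kinase gene induced by such signals, at 0.0145. Stat5b, a transcription factor gene of the pathway, had 1 row at 0.903 and another at 0.0476. Of the 2 rows of the adaptor gene Shc1, 1 was at 0.356 in intravasating and 0.453 in non-intravasating clones, without overlap, and the other at 0.0262 and 0.0304, with overlap. Stat5a, the close relative of Stat5b, had 1 row at 0.434 and 0.368 and another at 0.293 and 0.362 in intravasating and non-intravasating clones. In all, 2 rows of this list (Stat5a and Stat5b) were higher and 4 (Lyn, Ptpn6, Shc1 and Tyk2) lower without overlap, beside 4.31% and 6.89% of all promoters. At some of them the groups almost touched. The nearest clones were at 0.9052 (E) and 0.9047 (I) for Stat5b and 0.420 (T) and 0.417 (L) for Stat5a. For Tyk2 they were at 0.146 (E) and 0.153 (I). The other row of Ptpn6 overlapped.

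Inducers of CSF production had a median of 0.157 over 17 rows of 13 measured genes. The transcription factor genes Cebpd and Ets1 were at 0.0159 and 0.0178. The cytokine genes Il17a and Il1b, whose products induce Csf3, were at 0.682 and 0.627. One of the rows of Nfatc2 had the most negative difference, at 0.196 in intravasating and 0.255 in non-intravasating clones. Among 7 neutrophil chemoattractant and receptor genes, Cxcl1 and Cxcl5 were low like Csf3, at 0.0535 and 0.0613, whereas Ppbp and the receptor gene Cxcr2 were at 0.844 and 0.842. Cxcl2 was at 0.543 in intravasating and 0.605 in non-intravasating clones, and Cxcr1 at 0.758 and 0.718 in the same order. Cxcl1 was at 0.0441 (E) and 0.0333 (T), against 0.0588 (I), 0.0554 (K), 0.0644 (L) and 0.0649 (P). The Cxcl1 groups did not overlap. No row of any list was called in either direction by limma, each with an adjusted p of 1.0.

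Markers were used to check the cells. Mammary epithelial markers were mostly low, with 10 of 15 rows under 0.2 and a median of 0.171. Krt7 and Ovol1 were lowest at 0.0496 and 0.0785, Krt8 was at 0.139, and the keratin genes Krt5 and Krt19 were highest at 0.643 and 0.4996. Myeloid lineage markers had no row under 0.2 and a median of 0.708, beside 0.770 for the CSF receptor chains. Among them Ptprc, the CD45 gene, was at 0.790 and Sfpi1, the PU.1 transcription factor gene, at 0.816, while Cd14 and Lyz2 were lowest at 0.241 and 0.343. Fibroblast markers had a median of 0.709, with a row of Pdgfra (its other row was at 0.560) and Col1a1 lowest at 0.0597 and 0.397 and Col1a2 and Thy1 highest at 0.894 and 0.867. Itgb2, an integrin gene of leukocytes, was at 0.704 in intravasating and 0.799 in non-intravasating clones, and Lyz2 was at 0.401 and 0.314 in the same order. Of the epithelial markers, Cldn4 was at 0.172 in intravasating and 0.0607 in non-intravasating clones with clone E at 0.256 and clone T at 0.0880, and Krt8 was at 0.101 and 0.157. Beside Csf2, an unadjusted limma p under 0.05 was found for 6 of the 103 rows of the other lists (5.83%), beside 3.93% of all promoters. They were the rows of Lyn, Cxcl1, Cd68, Itgb2, Cdh1 and Cldn4. Lyn, Ptpn6, Tyk2, Cd68 and Cdh1 were named after their values were seen. Of the 2 Dcn rows, 1 was at 0.648 and 0.704 and the other at 0.781 and 0.709 in intravasating and non-intravasating clones.

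**Figure D5:**
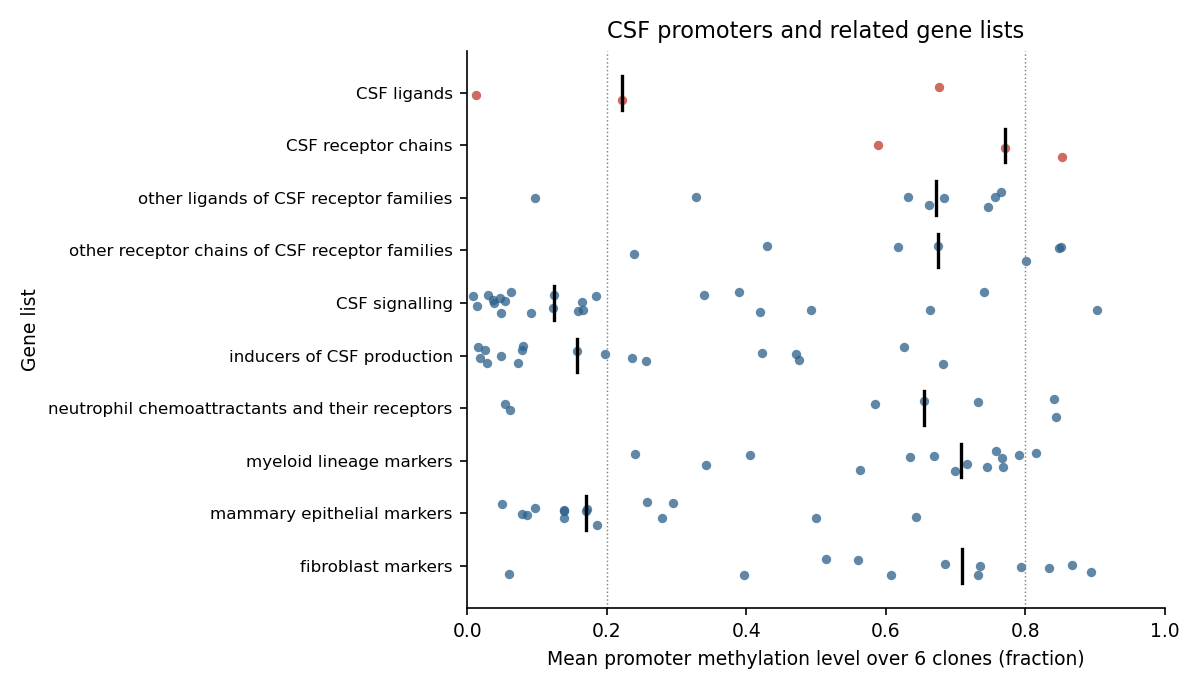
Mean promoter level over the 6 clones (horizontal axis, fraction) of each promoter row in the 10 gene lists (vertical axis), CSF genes in red and other lists in blue, with the median of each list as a black line and the bounds 0.2 and 0.8 dotted. The CSF ligands spread over the scale. Of the receptor chains Csf2rb and Csf1r lie within the range of the myeloid markers and Csf2ra, at 0.853, above it. Csf2rb, Csf1r and Csf2ra all lie within the wider range of the fibroblast markers, 0.0597 to 0.894.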

How the data were processed

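Genomic DNA of 4T1 clones was sonicated, bisulfite converted and sequenced as paired-end reads, per the labels' protocols. The labels list 14 libraries in 2 rounds from 6 clones and the parental line. The authors deposited 1 fraction per gene promoter and clone. The sources used here do not give how rounds were combined, the aligner, the promoter boundaries or the coverage. Per the submitters' processing notes, bedtools, DESeq and mm10 were used, with no role stated. Depth is unknown, so no coverage minimum could be applied. The regional methylation table of the series was not used here.

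Of 22110 deposited rows, 145 repeats of a gene with the same levels were dropped, leaving 21965. Levels were fitted with limma 3.58.1 (R 4.3.3, eBayes with a mean trend), intravasating minus non-intravasating, with 1 value per clone and Benjamini-Hochberg adjustment over all 21965 rows. The labels do not say that the clones' rounds were separate cultures, and p-values measure the spread between clones. The step was tested on simulated levels. Gene names were matched to RefSeq GRCm38.p6 by symbol (18885) or synonym (1343), with 115 unmatched.

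Members and lists were chosen with earlier results of these data known. Every member was named. From each other list the 2 lowest, 2 highest and the most negative and positive rows were named, with any row called or separated by a gap of at least 0.1; some of these are not reported here. For each member with a range of at least 0.1, the 3 most similar promoters were named. Neighbours were named by position. Alternatives were a logit scale (bounds 0.01 and 0.99), an arcsine scale, no mean trend, centred clones, a range filter, a looser threshold (adjusted p under 0.10), gaps of 0.05 and 0.1, and leaving out each clone. Python 3.11.15, pandas 2.3.3 and NumPy 2.4.6 were used for the rest.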

Additional observations from a re-analysis of the deposited data

Results flagged for a closer look

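At the Csf3 promoter, clone I was far from the other 3 non-intravasating clones. It was at 0.0331, and clones K, L and P were at 0.00587, 0.00588 and 0.00595. The gap to the nearest clone was 0.997 of the whole range, above the 95% critical value of Dixon's test for 4 samples. Chance flags about 1 in 20 groups, and 6.56% of all promoters had such a clone among the non-intravasating 4. The level of clone I was still low, and the depth behind it is unknown.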

How the results depend on the processing

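No member promoter and no listed promoter was called by limma under any of the alternatives run, nor at an adjusted p under 0.10 in the fit as reported. Of all promoters, 0 to 25 were called, the most with the filter on a range of at least 0.1, which leaves 9625 promoters. Csf2 kept its lower level in the intravasating clones in 11 of 11 alternatives. Because both intravasating clones lay below all others, a left-out clone, another scale, no mean trend or the range filter could not turn this sign. The count therefore adds no support. In the alternatives that kept both intravasating clones, the unadjusted limma p for Csf2 was 0.00649 to 0.0407 and the limma adjusted p was 0.615 or more. The sign of the small differences depended on single clones at Csf1, Csf3, Csf1r and Csf2rb, and at Csf2ra it did not turn without any 1 clone. With each clone left out in turn the difference was -0.0054 to 0.0342 for Csf1, -0.00124 to 0.00784 for Csf3, -0.0220 to 0.0453 for Csf1r and -0.0680 to 0.0790 for Csf2rb. None of these reversals passed the test. Promoters without overlap numbered 1 in the full set, Csf2, and 0 with a gap of at least 0.1. With 1 clone left out they numbered 1 to 3: Csf2ra joined Csf2 as lower without clone E, and Csf1 and Csf3 were higher without clone I, where 37.1% and 17.4% of all promoters did not overlap. Mean levels moved by less than 1 SD without any 1 clone.

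No paired analysis was possible because the columns hold 1 value per clone and carry no round. With 2 clones against 4 and an unknown depth, small differences could not be resolved.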
